A study of Mus musculus with 8 samples.

Results

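The 4 Ly6 surface antigen genes Ly6a, Ly6c1, Ly6c2 and Ly6e were followed in tumours formed by MC38 cells in C57BL/6J mice. There were 4 tumour samples from mice treated with C26 and 4 from control mice, called tumours below. MC38 is a mouse colon adenocarcinoma line that grows in this strain with the immune system intact. C26, known here only by its code, was dosed over 2 weeks, every other day, at 10 mg/kg. Whether control mice were given a vehicle or left untreated is not stated, nor is whether each sample came from a separate animal. The genes were picked by symbol, which gave 4 of the 56691 gene identifiers in the count table, and all 4 were among the 15755 genes that passed the filter on low counts. They were proposed with earlier results of the same comparison in view. Their C26 and control values are therefore a description, and no p-value is given for them.

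Ly6 proteins are small, cysteine-rich proteins that fold into finger-like loops and are held on the outer cell surface by a glycosylphosphatidylinositol (GPI) lipid anchor. Many mouse family members lie side by side on chromosome 15, and several are used as surface markers to sort blood and stromal cells. Ly6a encodes stem cell antigen Sca-1, found on mouse blood stem cells, endothelium, adventitial fibroblasts and activated lymphocytes. Ly6c1 and Ly6c2 encode the Ly6C antigens, of which Ly6c2 is abundant in classical monocytes and Ly6c1 is found on endothelium and some fibroblasts. Ly6e is expressed in many cell types, is induced by interferon and restricts the entry of coronaviruses.

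The members lie within one stretch of chromosome 15 (GRCm38, GENCODE M21). Ly6e is on the plus strand at 74955051 to 74959905. The other members are on the minus strand, Ly6a at 74994877 to 74998031, Ly6c1 at 75044018 to 75048830 and Ly6c2 at 75108158 to 75111970. Ly6c1 and Ly6c2 are close copies, and their coding sequences are shown because this limits how far reads of one can be told from reads of the other. The coding sequences are 396 bases each, taken from the GENCODE M21 transcripts. Their first 300 bases are written 5′ to 3′ with introns removed, and capitals mark the 7 differences there, of 9 in all. The whole coding spans with introns are chr15:75045402-75048511 for Ly6c1 and chr15:75108543-75111667 for Ly6c2.
Ly6c1: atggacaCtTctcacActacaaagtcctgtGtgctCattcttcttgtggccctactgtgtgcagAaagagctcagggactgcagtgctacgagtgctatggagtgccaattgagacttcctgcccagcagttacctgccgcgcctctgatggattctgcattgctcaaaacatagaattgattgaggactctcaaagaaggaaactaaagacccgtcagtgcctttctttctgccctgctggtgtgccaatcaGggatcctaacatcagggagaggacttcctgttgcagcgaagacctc
Ly6c2: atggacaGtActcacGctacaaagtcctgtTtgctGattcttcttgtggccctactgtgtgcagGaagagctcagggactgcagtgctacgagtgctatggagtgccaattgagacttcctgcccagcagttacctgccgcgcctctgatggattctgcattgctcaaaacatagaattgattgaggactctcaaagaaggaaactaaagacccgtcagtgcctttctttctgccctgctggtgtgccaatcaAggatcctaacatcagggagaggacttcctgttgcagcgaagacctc

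The coding sequences of Ly6c1 and Ly6c2 were 97.7% identical, and the longest stretch without a difference was 188 bases. Ly6a was 82% identical to Ly6c1 and 81.7% to Ly6c2, while Ly6e was the most distant member, with 54.4% identity to Ly6a, 51% to Ly6c1 and 51.3% to Ly6c2. Among all 50-base windows of the spliced Ly6c1 transcript, 36.7% also occurred in a transcript of another gene, as did 33% of those of Ly6c2, 8.05% of those of Ly6a and 0 of 2232 for Ly6e. With windows of 100 bases, 15.3% of Ly6c1 and 15.8% of Ly6c2 were shared, with each other, and 0 of 720 for Ly6a. The sources used here state no rule for reads that match more than one gene. The division of counts between Ly6c1 and Ly6c2 is therefore uncertain, and their sum is less so.

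The upstream sequences of the pair were less alike than the coding sequences, and they are shown for comparison. Both are from RefSeq on GRCm38.p6, minus strand, from 250 bases before to 50 after the outermost annotated start, at chr15:75048788-75049087 for Ly6c1 and chr15:75111922-75112221 for Ly6c2. Capitals mark TATAAA, searched on both strands.
Ly6c1 promoter: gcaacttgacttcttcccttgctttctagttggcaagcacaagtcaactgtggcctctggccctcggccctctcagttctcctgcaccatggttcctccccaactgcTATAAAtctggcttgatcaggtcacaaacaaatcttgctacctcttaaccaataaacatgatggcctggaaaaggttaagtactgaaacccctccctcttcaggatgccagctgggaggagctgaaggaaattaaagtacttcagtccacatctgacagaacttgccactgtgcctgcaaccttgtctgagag
Ly6c2 promoter: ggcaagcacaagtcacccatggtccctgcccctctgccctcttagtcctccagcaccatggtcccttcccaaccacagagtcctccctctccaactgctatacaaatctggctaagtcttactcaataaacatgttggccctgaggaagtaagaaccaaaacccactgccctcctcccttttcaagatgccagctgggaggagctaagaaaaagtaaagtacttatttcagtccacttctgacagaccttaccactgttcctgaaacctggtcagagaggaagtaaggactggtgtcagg

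These windows were 62.3% identical over their alignment, with 208 identical columns, 58 substitutions and 68 gap columns of 334. The windows are offset, as the first bases of the Ly6c2 window match bases further into the Ly6c1 window. Gap columns count as differences, so the paired bases alone were more alike than this percentage. TATAAA occurred once in Ly6c1 and at 0 places in Ly6c2, and 13.6% of 32851 promoter windows hold it. The match in Ly6c1 lies far upstream of the annotated start, and the Ly6c2 window holds a near match at the corresponding place. Whether either serves as a promoter element was not tested. The interferon-related motifs TTCNNNGAA (GAS, in 8.3% of windows) and GAAA, any 2 bases, GAAA (ISRE, in 3.44%) had 0 matches in either window on either strand. Absence of a motif here says only that these letters are not in this window. Whether the upstream sequences bear on the counts of the pair was not tested.

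Total counts ran from 17075176 to 21517425 per library and the TMM scaling factors from 0.967 to 1.03. The labelled epithelial origin showed little in the RNA. Of 12 epithelial identity genes 1 passed the count filter, the adhesion gene Cdh1, at 2.77 ± 0.39 CPM in C26 and 3.35 ± 0.605 CPM in control tumours (SD, n = 4 each). The list summed to 3.53 to 4.7 CPM in C26 and 3.21 to 5.14 CPM in control tumours, and Cdx2 was at 0 in all 8 libraries. Skeletal muscle RNA was uneven, with summed levels of 15 muscle genes of 53.3, 767, 170 and 29.4 CPM in C26 libraries 1 to 4 against 12.9, 50.1, 12.6 and 11.3 CPM in control libraries 1 to 4. Results below are therefore also given without C26 libraries 2 and 3 where that changes them. In bulk tumour RNA, a change in the number of cells of a type and a change in RNA per cell cannot be told apart.

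Per length, Ly6e was the most abundant member and Ly6a the next in every one of the 8 libraries, and both stood far above Ly6c1 and Ly6c2. As length-scaled transcript levels (TPM, computed here from the counts and merged exon lengths), the level of Ly6e ran from 421 to 467 in C26 and from 338 to 413 in control tumours. Ly6a ran from 291 to 383 TPM in C26 and from 199 to 258 TPM in control tumours. Ly6c1 ran from 39.9 to 64.1 TPM in C26 and from 21.3 to 26.1 TPM in control tumours. Ly6c2 ran from 9.19 to 32.9 TPM in C26 and from 8.07 to 19.9 TPM in control tumours. The ranges of the 4 members did not overlap within either group on this scale. The order of Ly6c1 above Ly6c2 came from the lengths used, 1677 bases of merged exons for Ly6c1 and 2740 for Ly6c2. Scaled instead by the transcripts whose coding sequences are shown, 844 and 822 bases long, Ly6c2 was above Ly6c1 in 4 of the 8 libraries, and Ly6e and Ly6a stayed first and next in all 8. This second length was added after the data were seen, and no order by level is given for Ly6c1 and Ly6c2. By mean TPM over the 8 libraries, Ly6e stood above 97.9% of tested genes, Ly6a above 96.7%, Ly6c1 above 72.6% and Ly6c2 above 55.4%, all by merged exons. TPM values are used only for levels between genes, because on that scale the median tested gene was 0.17 higher in C26 on a log2 scale. With TMM scaling that median was 0.01, and differences between groups are given as CPM, which divides each count by its TMM-scaled library total and not by length.

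**Figure D1:**
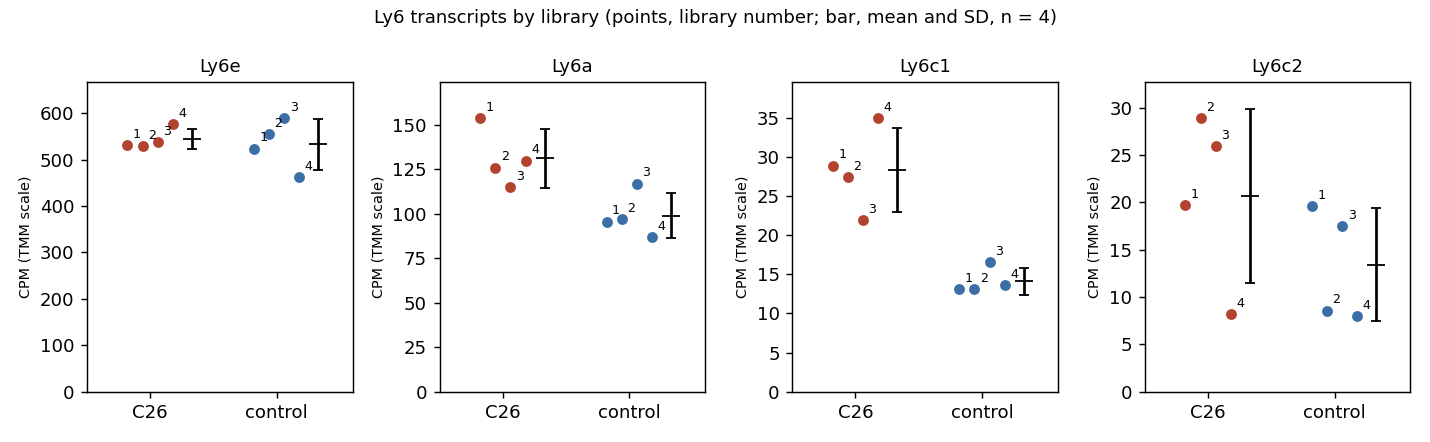
CPM on the TMM scale (y axis from 0) of Ly6e, Ly6a, Ly6c1 and Ly6c2 in each library of the C26 and control groups, numbered 1 to 4, with the mean and SD beside the points. The Ly6c1 points of C26 tumours lie between 21.9 and 35 CPM, all above the control points at 13.1 to 16.6 CPM, while the groups overlap for the other members.

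Ly6c1 had the largest difference of the members. It was at 28.9, 27.4, 21.9 and 35 CPM in C26 libraries 1 to 4, against 13.1, 13.1, 16.6 and 13.6 CPM in control libraries 1 to 4. Every C26 tumour was above every control tumour, which holds for 7.91% of all tested genes. The means were 28.3 ± 5.37 CPM in C26 and 14.1 ± 1.67 CPM in control tumours (SD, n = 4 each), a log2 fold change of 1.01 ± 0.131 (SE of the edgeR fit), or 2.01-fold. Of all 15755 tested genes, 1.16% had a higher log2 fold change. Control library 3 was the highest control, and it was also the control with the highest summed endothelial and adventitial fibroblast markers.

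Ly6a, the gene for Sca-1, was higher by a smaller factor. It was at 154, 126, 115 and 130 CPM in C26 libraries 1 to 4, against 95.7, 96.9, 117 and 86.8 CPM in control libraries 1 to 4. The groups overlapped at a single pair, since C26 library 3 was just below control library 3. The means were 131 ± 16.3 CPM in C26 and 99.2 ± 13 CPM in control tumours (SD, n = 4 each), a log2 fold change of 0.40 ± 0.0992 (SE).

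Ly6c2, the monocyte-associated copy, varied more between tumours of a group than the groups differed. It was at 19.7, 28.9, 25.9 and 8.2 CPM in C26 libraries 1 to 4, against 19.6, 8.56, 17.5 and 8 CPM in control libraries 1 to 4. C26 library 4 was low, next to control libraries 2 and 4, whereas control library 1 matched C26 library 1. The means were 20.7 ± 9.16 CPM in C26 and 13.4 ± 5.98 CPM in control tumours (SD, n = 4 each), and the log2 fold change was 0.62 ± 0.48 (SE). Without C26 libraries 2 and 3, the libraries with the most muscle RNA, it was 0.04. These libraries also had the highest Ly6c2 values, so leaving them out lowers the log2 fold change whatever their muscle RNA.

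Ly6e was nearly level between the groups. It was at 531, 530, 538 and 576 CPM in C26 libraries 1 to 4, against 524, 555, 590 and 462 CPM in control libraries 1 to 4. The C26 values lay inside the range of the control values, at means of 544 ± 21.9 CPM in C26 and 533 ± 54.2 CPM in control tumours (SD, n = 4 each). The log2 fold change was 0.03 ± 0.0776 (SE), and it was -0.03 without control library 4. Counts behind these values ran from 7628 to 11940 per library for Ly6e and from 132 to 568 for Ly6c2.

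Of the 4 members 2 passed the threshold of an adjusted p under 0.05 in edgeR's quasi-likelihood test, Ly6c1 and Ly6a, both higher in C26. Of all tested genes, 7.76% passed in either direction, 3.64% being higher and 4.12% lower in C26. The count of members was 1, namely Ly6c1, without C26 library 4 or without control library 1, 2 or 4. It was 2 without C26 libraries 2 and 3. Because the members were proposed from this comparison, the count describes them and nothing is read from it.

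Tumours of a group differed in the members to unequal degrees. The SD within groups on the log2 CPM scale was 0.113 for Ly6e, 0.178 for Ly6a, 0.226 for Ly6c1 and 0.747 for Ly6c2, against a median of 0.161 over all tested genes. The spread of Ly6c2 was larger than that of 98.9% of tested genes, and that of Ly6e was larger than that of 28.2%. Ratios of members within a library do not depend on the scaling between libraries. The TPM ratio of Ly6a to Ly6c1 was 5.18 to 7.41 in C26 and 8.89 to 10.3 in control tumours, without overlap. The ratio of Ly6e to Ly6a was 1.1 to 1.49 in C26 and 1.6 to 1.82 in control tumours, also without overlap, whereas that of Ly6c1 to Ly6c2 overlapped, at 1.38 to 6.97 in C26 and 1.09 to 2.77 in control tumours. The size of each ratio, unlike the overlap, depends on the lengths used. Of single tested genes, 16.1% had all C26 tumours on one side of all control tumours, and no such share was computed for ratios. Because the members were proposed from this comparison, the ratios restate their differences and are not separate evidence.

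The Ly6c pair was also read as a sum and a share, since reads may pass between the copies. The sum of Ly6c1 and Ly6c2 was 48.6, 56.3, 47.8 and 43.2 CPM in C26 libraries 1 to 4, against 32.6, 21.7, 34.1 and 21.6 CPM in control libraries 1 to 4. The groups did not overlap, at 49 ± 5.44 CPM in C26 and 27.5 ± 6.79 CPM in control tumours (SD, n = 4 each). Of single tested genes, 7.91% had every C26 tumour above every control tumour, and no such share was computed for sums. The share of Ly6c1 in the pair was 59.5, 48.7, 45.9 and 81% in C26 libraries 1 to 4, against 40, 60.5, 48.6 and 62.9% in control libraries 1 to 4. C26 library 4 stood apart with 81% (95% Wilson interval 78.2 to 83.5%, counting error only), because it had both the highest Ly6c1 and the lowest Ly6c2 of the C26 tumours. The mean share was 58.7 ± 16% in C26 and 53 ± 10.7% in control tumours (SD, n = 4 each), a difference of 5.73 percentage points. Without C26 library 4 the difference was -1.69 points.

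**Figure D2:**
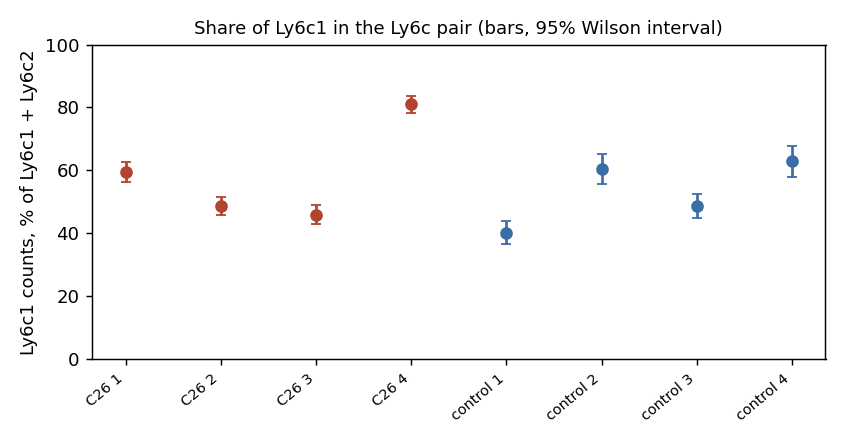
Share of Ly6c1 in the summed Ly6c1 and Ly6c2 counts (y axis, percent) in each C26 and control library (x axis), with 95% Wilson intervals that cover counting error only. C26 library 4 lies at 81%, and the other 7 libraries lie between 40 and 62.9%.

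The remaining Ly6 genes of the chromosome 15 cluster were scarce in these tumours. Of 20 further listed genes of the cluster with counts listed, 3 passed the count filter, and 8 had no count in any library, among them Ly6g, the neutrophil surface antigen. A count of 0 allows up to 3 counts per library, or 0.137 to 0.182 CPM. In edgeR 0 of the 3 changed, with 0 at an unadjusted p under 0.05 and 0 in DESeq2 and limma-voom. Gpihbp1, whose product carries lipoprotein lipase across capillary endothelium, was at 5.23 ± 0.691 CPM in C26 and 5.5 ± 0.719 CPM in control tumours (SD, n = 4 each, edgeR adjusted p = 0.797). Lynx1, a modulator of nicotinic acetylcholine receptors, was at 2.33 ± 0.199 CPM in C26 and 2.05 ± 0.636 CPM in control tumours (edgeR adjusted p = 0.682). Ly6i, which lies between Ly6e and Ly6a, was at 0.708 ± 0.403 CPM in C26 and 1.07 ± 0.523 CPM in control tumours (log2 fold change -0.62 ± 0.418 SE, edgeR adjusted p = 0.369).

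Family members elsewhere in the genome gave the same count. Of 21 such genes listed, 4 passed the count filter and 0 changed in edgeR, with 0 at an unadjusted p under 0.05 and 0 in DESeq2 and limma-voom. Plaur, the urokinase receptor gene, was at 38.8 ± 7.07 CPM in C26 and 46.3 ± 6.52 CPM in control tumours (log2 fold change -0.25, edgeR adjusted p = 0.232). Without C26 libraries 2 and 3 it passed the threshold, at -0.48 (edgeR adjusted p = 0.0307). Tex101, known from testis, was at 39.5 ± 5.44 CPM in C26 and 43.5 ± 9.66 CPM in control tumours (edgeR adjusted p = 0.589), a level close to that of Plaur in CPM. Ly6g5b and the complement regulator gene Cd59a had log2 fold changes of -0.52 and -0.22, with edgeR adjusted p of 0.335 and 0.758.

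**Figure D3:**
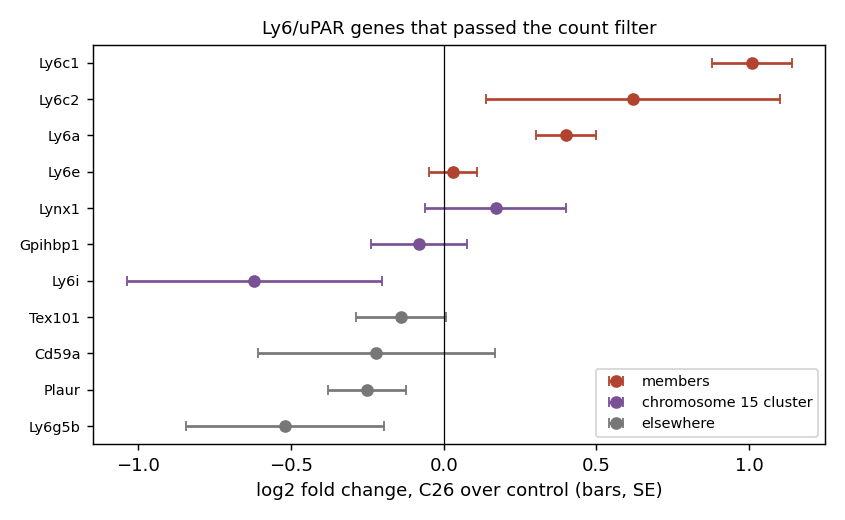
Log2 fold change of C26 over control (x axis, points, with the SE of the edgeR fit as bars) for the 11 Ly6/uPAR family genes that passed the count filter, grouped as the 4 members, the chromosome 15 cluster and genes elsewhere. Ly6c1 lies at 1.01 and Ly6a at 0.40, while the bars of Ly6e, Lynx1, Gpihbp1, Tex101 and Cd59a include 0.

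The GPI anchor that holds Ly6 proteins on the cell is built and attached by enzymes of the endoplasmic reticulum. Of 28 tested genes for its synthesis and transfer 0 changed in edgeR, 5 had an unadjusted p under 0.05, and DESeq2 called 1 and limma-voom 0. Of all tested genes, 7.76% changed in edgeR in either direction. Such unadjusted p-values were common over all tested genes, since a gene of this list at 0.0455 had an edgeR adjusted p of 0.185. Their share over all tested genes was not counted, so here and below such counts are not read as an excess. The median log2 fold change was 0.06, against 0.01 over all tested genes. Pign, an ethanolamine phosphate transferase gene, was at 98.6 ± 7.99 CPM in C26 and 90.6 ± 5.23 CPM in control tumours (SD, n = 4 each, edgeR adjusted p = 0.313). Pigs, for a subunit of the transamidase that attaches the anchor, was at 73.7 ± 3.34 CPM in C26 and 76.2 ± 3.69 CPM in control tumours (edgeR adjusted p = 0.697). Scaled by total library size, 4 of the 28 passed, and 1 passed without C26 library 1.

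Interferon induces Ly6a and Ly6e in many cells, so interferon target genes were read beside them. Of 25 type I interferon genes 0 changed in edgeR, 6 had an unadjusted p under 0.05, all of them higher in C26, and DESeq2 and limma-voom called 1 each. With no share over all tested genes beside them, the 6 are not read as an excess. Leaving out C26 library 1 or control library 2 gave 2 calls, leaving out control library 4 gave 1, and scaling by total library size gave 5. Oasl2 was at 320 ± 12.3 CPM in C26 and 285 ± 38.5 CPM in control tumours, and Bst2 (tetherin) at 257 ± 22.2 CPM in C26 and 290 ± 45.6 CPM in control tumours (SD, n = 4 each, edgeR adjusted p of 0.228 and 0.281). Of 26 interferon gamma genes 4 rose (Gbp4, Gbp5, Gbp7 and Cxcl9), at a list median of 0.03, where 3.64% of all tested genes passed as higher. Of the 26, 10 had an unadjusted p under 0.05, and 6 of these were higher in C26. The other 4, which did not pass the adjusted threshold, were antigen presentation genes with log2 fold changes of -0.29 for H2-K1, -0.24 for H2-D1, -0.21 for Tap1 and -0.20 for Psmb8 (edgeR adjusted p of 0.0693, 0.0780, 0.0699 and 0.180). The guanylate-binding protein genes Gbp4, Gbp5 and Gbp7 and the T cell attracting chemokine gene Cxcl9 had log2 fold changes of 0.56, 0.43, 0.35 and 0.76 (edgeR adjusted p of 0.0141, 0.0288, 0.0379 and 0.0465). The count was 2 without C26 library 1, 2 or 3 and 1 without control library 1, 3 or 4. It was also 1 without C26 libraries 2 and 3, where Gbp4 did not pass (edgeR adjusted p = 0.0705). With 7 passing in DESeq2 and 7 in limma-voom, the number depended on the tool. Summed over the list, interferon gamma genes ran from 5960 to 7290 CPM in C26 and from 6910 to 8190 CPM in control tumours. Most of this sum was H2-K1, H2-D1 and B2m. Their means were 1620, 1560 and 1730 CPM in C26 and 1990, 1850 and 1870 CPM in control tumours. The sum therefore says little about the other genes of the list. The part of interferon gamma genes in the Ly6a difference was not tested.

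Ly6a and Ly6c1 are carried by endothelium, and endothelial markers were higher in C26 tumours in part. Of 17 tested markers 4 rose, where 3.64% of all tested genes passed as higher in C26, and the list median was 0.46. The phosphatase gene Ptprb was at 8.85 ± 0.956 CPM in C26 and 5.04 ± 1.05 CPM in control tumours (SD, n = 4 each, log2 fold change 0.81 ± 0.159 SE, edgeR adjusted p = 0.00767). The matrix glycoprotein gene Mmrn2 (0.87), the angiopoietin receptor gene Tek (0.89) and the sialomucin gene Podxl (0.57) had log2 fold changes that also passed. Tek was lost without control library 1, Mmrn2 without C26 library 1 or control library 1, 2 or 4, and Podxl without C26 library 1, 3 or 4 or control library 1 or 2. Pecam1 was at 29.2 ± 2.73 CPM in C26 and 21.2 ± 6.9 CPM in control tumours and did not pass (edgeR adjusted p = 0.144). The summed markers were 243, 210, 224 and 195 CPM in C26 libraries 1 to 4, against 153, 154, 224 and 172 CPM in control libraries 1 to 4, and overlapped. Leaving out control library 3 gave 8 calls. Leaving out control library 1 gave 1 call, as did leaving out C26 libraries 2 and 3 together, and leaving out C26 library 1 or control library 2 gave 2. C26 library 4 had the highest Ly6c1 and the lowest endothelial sum of its group.

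Adventitial fibroblasts, the cells of the outer vessel wall, carry Sca-1 and Ly6C in mice. Over all tested genes, 3.64% passed as higher in C26. The list median was 0.33. Of 13 tested markers 9 had log2 fold changes above 0, and 4 rose past the threshold in C26. They were the matrix gene Mfap5 (8.03 ± 3.08 CPM in C26 and 3.45 ± 1.02 CPM in control tumours), the semaphorin gene Sema3c (18.7 ± 0.822 CPM in C26 and 13.9 ± 2.36 CPM in control tumours), the Wnt modulator gene Sfrp2 (1.51 ± 0.772 CPM in C26 and 0.579 ± 0.117 CPM in control tumours) and Cd34 (247 ± 22.7 CPM in C26 and 208 ± 5.05 CPM in control tumours), all SD with n = 4 each. Each of these calls was lost without 5 to 7 of the 8 libraries left out in turn, and 0 calls were left on leaving out C26 library 3 or control library 1. Leaving out C26 library 2, control library 2, 3 or 4, or C26 libraries 2 and 3 together gave 1 call, and leaving out C26 library 4 gave 2. The defining marker Pi16 was low, at 2.05 ± 1.02 CPM in C26 and 1.41 ± 0.284 CPM in control tumours. The summed markers were 541, 512, 503 and 574 CPM in C26 libraries 1 to 4, against 442, 415, 489 and 392 CPM in control libraries 1 to 4, without overlap. How often sums of other gene lists separate was not computed. The C26 tumours had the same order by this sum as by Ly6c1, library 4 first, then 1, 2 and 3, and the control tumours did not. The part of endothelial and fibroblast RNA in the Ly6a and Ly6c1 differences was not tested.

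Few classical monocyte genes passed the threshold. Of 12 tested markers 1 rose, the proteoglycan gene Vcan, which fibroblasts also express (197 ± 31.5 CPM in C26 and 147 ± 7.4 CPM in control tumours, log2 fold change 0.42, edgeR adjusted p = 0.0158), and the list median was 0.09. The count was 2 without C26 library 4 and 3 with replicate number as a block. Over all tested genes, 3.64% passed as higher in C26. An unadjusted edgeR p under 0.05 was found for 4 of the 12, all higher in C26, and DESeq2 and limma-voom called 1 each. As for the other lists, the 4 are not read as an excess. The summed markers were 1260, 981, 1060 and 1120 CPM in C26 libraries 1 to 4, against 1220, 1080, 1190 and 837 CPM in control libraries 1 to 4. Ccr2, the receptor that draws monocytes out of the marrow, was at 126, 120, 123 and 91.1 CPM in C26 libraries 1 to 4, against 122, 95.2, 99.5 and 84.4 CPM in control libraries 1 to 4. Ccr2 and Ly6c2 were both lowest in library 4 of each group, and the control tumours had the same order by both genes, library 1 first, then 3, 2 and 4. The C26 tumours did not, with library 1 highest for Ccr2 and library 2 for Ly6c2. The highest Ly6c2 value of a group was 3.52 times the lowest in C26 and 2.45 times in control tumours, against 1.38 and 1.45 times for Ccr2. The part of monocyte RNA in the spread of Ly6c2 was not tested.

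**Figure D4:**
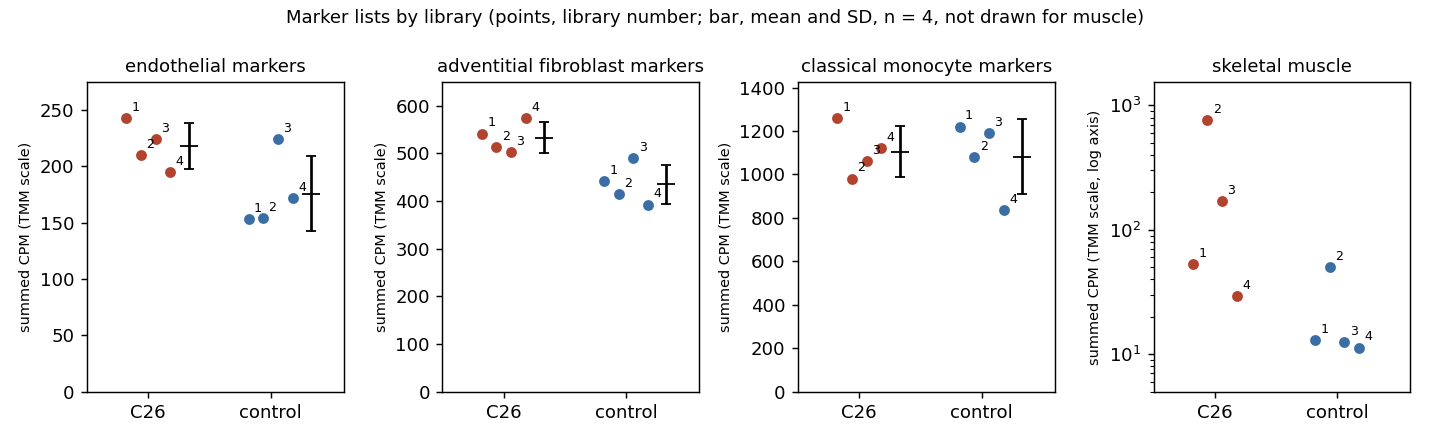
Summed CPM of endothelial, adventitial fibroblast and classical monocyte markers (y axes from 0) and of skeletal muscle genes (log y axis) in each library of the C26 and control groups, numbered 1 to 4, with mean and SD except for muscle. Adventitial fibroblast sums, a large part of which is Cd34, run from 503 to 574 CPM in C26 and from 392 to 489 CPM in control tumours. The endothelial and monocyte sums overlap.

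Neutrophil, lymphocyte and plasmacytoid dendritic or plasma cell markers were read in the same way. Of 12 neutrophil markers 4 were tested and 0 changed in edgeR, DESeq2 or limma-voom (0 at an unadjusted p under 0.05), and S100a9 was at 0.653 ± 0.244 CPM in C26 and 0.826 ± 0.192 CPM in control tumours (SD, n = 4 each). The neutrophil sum of 92.1 to 106 CPM in C26 and 75.4 to 113 CPM in control tumours was mostly Mmp9, which other cells also express, and Csf3r was at 7.28 ± 1.47 CPM in C26 and 7.87 ± 1.69 CPM in control tumours. Of 15 T and NK cell markers 6 were tested and 0 changed in edgeR, DESeq2 or limma-voom (0 at an unadjusted p under 0.05), and the list summed to 22.1 to 26.6 CPM in C26 and 17 to 34.2 CPM in control tumours. The cytotoxic granule genes Gzmb and Prf1 were at 7.71 ± 1.99 and 5.36 ± 0.793 CPM in C26 and 6.66 ± 1.89 and 5.59 ± 1.55 CPM in control tumours. Among 4 tested plasmacytoid dendritic and plasma cell markers 1 fell, Cox6a2, a subunit of cytochrome oxidase that muscle also makes (17.7 ± 0.876 CPM in C26 and 29.2 ± 6.33 CPM in control tumours, edgeR adjusted p = 0.00419). Over all tested genes, 4.12% passed as lower in C26. That list summed to 106 to 122 CPM in C26 and 113 to 122 CPM in control tumours.

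Skeletal muscle RNA was spread unevenly over the C26 tumours, as the sums above show. All 13 tested muscle genes had log2 fold changes above 0, with a list median of 3.84, and 1 passed in edgeR, the fast myosin gene Myh1 (3.69 ± 2.31 CPM in C26 and 0.0661 ± 0.132 CPM in control tumours), while DESeq2 called 9 and limma-voom 6. Leaving out C26 library 2 gave 4 calls, C26 library 4 gave 2, and C26 libraries 2 and 3 together gave 3. With all libraries, 3.64% of all tested genes passed in edgeR as higher in C26.

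Ly6a also marks a fetal-like, regenerating state of mouse gut epithelium, and other genes of that state were read beside it. Of 9 tested members 1 fell in C26, the mesothelin gene Msln, at 48.3 ± 7.57 CPM in C26 and 70.4 ± 13.5 CPM in control tumours (SD, n = 4 each, edgeR adjusted p = 0.0398), and the list median was -0.19. Over all tested genes, 4.12% passed as lower in C26. An unadjusted edgeR p under 0.05 was found for 5 of the 9, and 2 of these were higher in C26. As for the other lists, the 5 are not read as an excess. Msln was lost without C26 library 1, 3 or 4 or control library 1, 2 or 4, and without C26 library 3 the count past the threshold was 3. Without C26 libraries 2 and 3, 4 members passed.

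The genes whose log2 CPM profiles over the 8 libraries lay nearest to each member were found by the root mean square difference after centring each gene. Because the profiles include the difference between groups, these are descriptions. Nearest to Ly6a were Epas1, for a hypoxia-inducible factor, at a difference of 0.0541, then the Wnt receptor gene Fzd8 (0.0811), the matrix gene Sparc (0.0849) and the SUMO ligase gene Pias3 (0.0854), where a flat gene would be at 0.254. Nearest to Ly6c1 were the matrix gene Sparcl1 (0.163), the atypical cadherin gene Fat4 (0.165), the xylosyltransferase gene Gxylt2 (0.191) and Psd3 (0.191), where a flat gene would be at 0.532. For Ly6c2 the genes found were farther off, among them the glypican gene Gpc4 (0.312), Serping1 for the complement inhibitor of C1 (0.382) and the procollagen protease gene Adamts2 (0.396), where a flat gene would be at 0.711. Nearest to Ly6e were Sept5 (0.0392), Ostc (0.0507), Yif1a (0.0514) and Dpagt1 (0.055), where a flat gene would be at 0.0996.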

How the data were processed

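Tumour polyadenylated RNA was sequenced in 4 C26 and 4 control samples. The authors deposited 1 raw count per gene and sample, not normalized. HISAT2 2.2.1 (alignment), featureCounts 2.0.1 (counting), Trim Galore 0.6.7 and mm10 appear in the submitters' processing notes. Their design text gives STAR and RSEM in place of HISAT2 and featureCounts. The sources used here give no annotation release, strand setting or rule for multiply mapped reads. GENCODE M21 gave a symbol to 52073 of 56691 identifiers, the remainder holding 0.769% of counts. Whether each sample came from a separate animal is not stated, and p-values measure the spread between these samples.

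Counts were filtered (filterByExpr, 15755 genes kept), scaled by TMM and tested with edgeR 4.0.16 in R 4.3.3 (quasi-likelihood, robust, two-sided, Benjamini-Hochberg adjusted p under 0.05, group as the sole term). Log2 CPM used a prior count of 2. Alternatives used DESeq2 1.42.0 and limma 3.58.1 (voom with sample weights). The script was tested on simulated data. Sequences were aligned globally with Biopython 1.88. Every pair of libraries differed by more than counting noise (chi-square per degree of freedom of at least 5.64).

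The members and the 14 gene lists were chosen with earlier results of these data known. Named genes are the members, all changed genes of the Ly6/uPAR lists or else their 3 most abundant, up to 4 changed genes with the smallest p of each other list or else its 2 most abundant, and 4 genes nearest to each member among protein-coding genes of at least 1 CPM. Genes named beyond this rule, such as Ccr2, Pecam1, Pi16, Cdx2, Cd59a, H2-K1, H2-D1, B2m, Tap1, Psmb8, S100a9 and Ly6g, were chosen after their values were seen. Of the genes this rule names, 1 is not reported here.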

Additional observations from a re-analysis of the deposited data

Results flagged for a closer look

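Of 132 sets of 4 libraries examined, 10 had 1 library standing apart from the other 3, which chance gives in about 1 in 20 sets. Among the members this was Ly6c1 in the control group, with control library 3 at 16.6 CPM. In C26 tumours the highest library stood apart for Gbp4 (library 3, 16.6 CPM) and Gbp5 (library 1, 25.1 CPM). In control tumours the highest library stood apart for Gbp7 (library 2, 53 CPM), Cox6a2 (library 4, 38.6 CPM), Sema3c (library 4, 17.4 CPM) and Myh1 (library 2, 0.264 CPM). Control library 2 was also apart for the summed Ly6/uPAR genes outside the cluster (111 CPM) and the summed skeletal muscle genes (50.1 CPM). Serping1 had its lowest control value apart, at 2.3 CPM in library 4.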

How the results depend on the processing

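The log2 fold changes of Ly6a, Ly6c1 and Ly6c2 stayed above 0 under every alternative, at 0.32 to 0.52 for Ly6a, 0.89 to 1.18 for Ly6c1 and 0.04 to 0.88 for Ly6c2. Ly6e ran from -0.03 to 0.10. With single libraries left out in turn, the members past the threshold numbered 1 to 2, genes changed among all tested numbered 643 to 1457, GPI anchor genes 0 to 1, interferon and marker list genes 5 to 15 (16 with all libraries), and the Ly6c1 share differed by -1.69 to 10.0 points. Scaled by total library size, 1949 genes changed, 78.7% of them higher against 46.9% with TMM, as did 4 GPI anchor and 27 interferon and marker list genes. Without a count filter the numbers were 1948, 1 and 39. DESeq2 gave 1 GPI anchor and 32 list genes, and limma-voom 29 list genes. Without C26 libraries 2 and 3, 897 genes changed among all tested, and 1 gene outside the cluster (Plaur) and 1 GPI anchor gene passed. The labels state no pairing of samples by replicate number. Deviations of same-numbered libraries from their group means correlated at -0.0234, 0.135, -0.0195 and 0.0934. Those of differently numbered libraries correlated at -0.203 to 0.215, and so few values cannot settle whether samples were paired. With the replicate block 29 list genes passed, the members past the threshold were still 2, and the log2 fold change was 0.40 for Ly6a and 0.99 for Ly6c1. The causes of these shifts were not tested. Depth limits the scarce Ly6 genes of the cluster, for which no difference was detectable.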
